A study of Mus musculus with 6 samples.

Results

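The activin and TGF-beta signalling genes described here are 10 named genes, all found among the 26754 genes of each table. They were chosen by name with earlier results of the same day 14 against day 7 contrast known, so their values in that contrast are a description and carry no test. They comprise 5 ligand genes (Inhba, Inhbb, Tgfb1, Tgfb2 and Tgfb3), 4 receptor genes (Tgfbr1, Tgfbr2, Acvr1b and Acvr2a) and Fst, the gene of follistatin. The RNA came from cells that magnetic CD8a beads had captured from tumours grown under the skin from B16 cells, which are a melanoma line of the mouse. The hosts were female C57BL/6J mice of 6 to 8 weeks when bought, and tumours were taken on day 14 (3 libraries) or day 7 (3 libraries) after implantation. All mice carried the tumour and none is labelled as treated, and the labels do not say whether a library is 1 mouse or a pool. The title concerns LFA-1 in CD8+ T cells and states no question about activin or TGF-beta.

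Activins and TGF-betas are secreted dimers of 1 protein superfamily. A dimer binds a type II receptor, which recruits and phosphorylates a type I receptor, and this in turn phosphorylates SMAD2 and SMAD3, which enter the nucleus with SMAD4. Activins use ACVR2A or ACVR2B with ACVR1B, TGF-betas use TGFBR2 with TGFBR1, and follistatin binds activins and keeps them from their receptors. In tumours TGF-beta is known for restraining cytotoxic T cells, and activin A, the dimer of the Inhba product, is made by many cell types including macrophages.

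Promoter sequences are shown for 3 ligand genes, because the level on day 14 against day 7 differed between them. Inhba and Tgfb2 were at or near 0 reads in the 3 day 7 libraries and present in the 3 of day 14, and Tgfb1 was at a similar level on both days. Each is a window of 300 bases, most of it upstream of the gene start, given 5′ to 3′ (RefSeq, GRCm38.p6), and capitals mark TATAAA and the GC box GGGCGG on either strand.
Inhba (chr13:16011601-16011900, plus strand): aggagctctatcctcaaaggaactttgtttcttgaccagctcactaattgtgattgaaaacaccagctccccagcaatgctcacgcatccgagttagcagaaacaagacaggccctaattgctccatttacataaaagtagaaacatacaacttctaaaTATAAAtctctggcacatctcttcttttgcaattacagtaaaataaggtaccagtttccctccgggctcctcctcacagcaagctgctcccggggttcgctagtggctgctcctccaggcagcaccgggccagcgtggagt
Tgfb2 (chr1:186705940-186706239, minus strand): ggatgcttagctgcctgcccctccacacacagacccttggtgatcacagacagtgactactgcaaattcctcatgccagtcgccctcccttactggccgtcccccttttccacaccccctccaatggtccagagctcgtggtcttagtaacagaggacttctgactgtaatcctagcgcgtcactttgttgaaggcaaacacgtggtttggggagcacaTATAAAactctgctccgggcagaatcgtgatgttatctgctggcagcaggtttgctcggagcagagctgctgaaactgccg
Tgfb1 (chr7:25686752-25687051, plus strand): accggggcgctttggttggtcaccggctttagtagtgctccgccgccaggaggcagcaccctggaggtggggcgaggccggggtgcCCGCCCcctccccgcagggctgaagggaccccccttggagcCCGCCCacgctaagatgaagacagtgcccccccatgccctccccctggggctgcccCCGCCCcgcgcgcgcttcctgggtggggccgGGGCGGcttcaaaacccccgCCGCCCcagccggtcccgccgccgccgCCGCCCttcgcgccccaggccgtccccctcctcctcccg
Inhba and Tgfb2 held TATAAA, at position -91 and -31 from the gene start, and no GC box, and Tgfb1 held 6 GC boxes and no TATAAA. Acvr1b and Acvr2a, which were also higher on day 14 in every library, held 4 and 3 GC boxes and no TATAAA. Whether these letters bear on the change in level was not tested. The GC content of these windows was 47.7% for Inhba, 54.3% for Tgfb2 and 77.0% for Tgfb1. In all, 9 promoters of 8 of the 10 genes were in the RefSeq table. TATAAA stood in 2 of these 9, against 13.6% of all 32851 promoters, and the GC box in 5, against 35.7%. The Smad half-site CAGAC stood in 4 (49.6% of all), the hypoxia motif ACGTG in 2 (19.6%), and the AP-1 motif TGANTCA (7.81%) and the STAT motif TTCNNNGAA (8.3%) in 0. All motifs were searched on both strands. Matches of different motifs did not overlap, but the ACGTG matches in Tgfb2 and Acvr1b are each a CACGTG read on both strands, and the GC boxes at -17 and -13 of Acvr1b share bases. A match is a description of letters and does not show that a factor binds.

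The deposited values are RPKM, reads scaled to gene length and to the reads in genes of the library, and CPM below are scaled to the library without the length. Reads could be recovered from the steps of the values, and totals in genes ran between 11385106 and 13316522 for day 14 and between 6523019 and 9313078 for day 7. Day 7 replicates 1 and 2 agreed almost to sampling noise (median chi-square ratio per fragment 1.10, where 1 is noise alone), against 40.8 and 44.5 between each of them and replicate 3 and 4.05 to 4.43 between day 14 libraries. They were averaged and counted as 1 sample, so n = 2 for day 7 and n = 3 for day 14. Among genes whose highest value in a day was 5 to 20 CPM, 3.05% lay 4-fold or more apart, or were at 0 in one of the values compared, among the day 14 libraries. The share was 55.6% on day 7, between the averaged pair and replicate 3, so a low value in 1 day 7 library is a weak guide to the others. At 20 to 100 CPM the shares were 0.0191% on day 14 and 18.1% on day 7, so the limit does not end at 20 CPM. The number of genes with any read was 18318 to 19053 for day 14 and 13133 to 13806 for day 7. Markers of CD8 T cells were present in every library, but markers of B16 cells and macrophages were too. In such mixed RNA, fewer cells of a type and less RNA per cell cannot be told apart.

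Of the 10 genes, 4 were higher in every day 14 library than in any day 7 library (Inhba, Tgfb2, Acvr1b and Acvr2a), none was lower, and 6 overlapped. Over all 22712 genes with a read, 27% were higher without overlap and 8.59% lower, and over the 6690 genes of the test below 31.6% and 17.8%. Only Inhba, Tgfb1 and Tgfbr2 reached the mean of 20 CPM needed for the limma test across all 6690 such genes, and Inhba, at a mean of 21.3 CPM, did so through its day 14 values alone. Of these 3, Inhba was past the threshold (adjusted p under 0.05, higher) and the other two were not, where 5.29% of all tested genes were, 2.62% higher and 2.68% lower. Inhba was chosen on this contrast and reached the filter only through the day on which it is high, so that its place past the threshold is no test, and nothing is read from these shares. The other 7 were below the filter and are given by their levels.

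**Figure D1:**
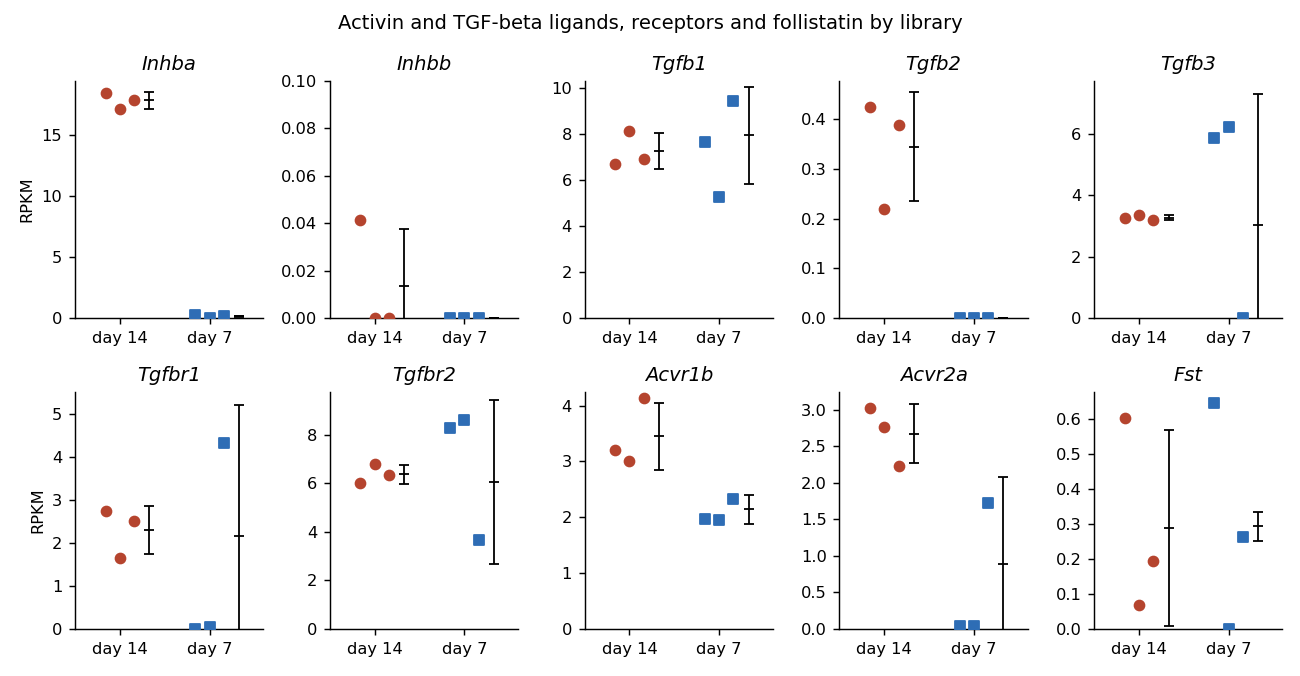
RPKM of the 10 genes (vertical axes, each from 0) in the 3 day 14 libraries (circles) and the 3 day 7 libraries (squares, replicates 1, 2 and 3 in that order). Black bars are the mean ± SD, with day 7 replicates 1 and 2 averaged first (n = 3 on day 14, n = 2 on day 7), and stop at 0. Inhba stands at 17.1 to 18.5 on day 14 and at 0.253 or less on day 7, while in Tgfb3, Tgfbr1, Tgfbr2 and Acvr2a day 7 replicate 3 lies far from the other day 7 libraries.

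The ligand gene Inhba, which encodes the beta A subunit of activin A and inhibin A (chromosome 13, 16011851 to 16027211, plus strand of GRCm38), had the highest RPKM of the 10 genes on day 14 and was nearly absent on day 7. It stood at 18.5, 17.1 and 17.9 RPKM in day 14 replicates 1 to 3, against 0.253, 0 and 0.155 RPKM in day 7 replicates 1 to 3. The groups lay far apart, and day 14 libraries differed little among themselves. These values rest on 416, 426 and 472 reads on day 14, against 4, 0 and 2 reads on day 7. Both mates of a pair were counted, so that the day 7 libraries together held 3 fragments of Inhba against 657 on day 14. Scaled to all fragments the pooled ratio was 140, with an exact 95% interval of 47.7 to 680 that covers counting error only. The mean was 17.8 ± 0.67 RPKM on day 14 (SD, n = 3) and 0.141 ± 0.020 on day 7 (SD, n = 2). With the 3 day 7 libraries taken singly it was 0.136 ± 0.128, so the smaller SD comes from the averaging and shows no precision.

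On the log2(RPKM + 1) scale of the limma fit, which understates the change of a gene near 0, the fold change of Inhba was 4.04 with an SE of 0.45 and a 95% interval of 3.05 to 5.03. This was the 4th highest of 6690 tested genes. Inhba was chosen on this contrast and passed the filter through day 14 alone, so that place is a description and no test. With a pseudocount of 0.1 the log2 fold change was 6.22, and with limma-voom on the recovered reads it was 6.74 with an SE of 2.67. Marco, a scavenger receptor gene of macrophages, had the pattern most like that of Inhba over the 5 samples, with a Pearson r of 1.00 on log2(RPKM + 1), followed by Itgav, Vcan, Timm8b and Hook3. These were the highest of 6687 genes compared, of which 112 had an r over 0.99, and the points share the large step between the days.

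The Inhba gene model in the files spans 1980 bases of exon and ends at 16027211, whereas the gene ends at 16031621 in GENCODE M21, so reads from that last part were not counted on either day. No other gene model overlapped it, and 0.537% of its 50-base stretches occurred in transcripts of another gene.

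Inhbb, the gene of the activin beta B subunit (chromosome 1, 119415465 to 119422248, minus strand), had 2 reads in day 14 replicate 1 and none in the other day 14 libraries or on day 7. Of these beta subunit genes, Inhba supplied almost all the reads on day 14. The activin antagonist Fst (chromosome 13, 114452262 to 114458730, minus strand) was low throughout, at 0.601, 0.0681 and 0.193 RPKM on day 14 and 0.644, 0 and 0.262 RPKM on day 7. It had 16, 2 and 6 reads on day 14 and 12, 0 and 4 on day 7, and the days overlapped. Within a library Inhba exceeded Fst 30.7-fold, 251-fold and 92.9-fold on day 14, and stood at 0.393 and 0.59 times Fst in day 7 replicates 1 and 3, while in day 7 replicate 2 both were at 0.

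Tgfb1, the main TGF-beta of immune cells (chromosome 7, 25687002 to 25705077, plus strand), did not separate the days. It stood at 6.67, 8.13 and 6.91 RPKM on day 14 and at 7.64, 5.26 and 9.43 RPKM on day 7. The day 7 libraries lay on both sides of those of day 14. The mean was 7.24 ± 0.78 RPKM on day 14 (SD, n = 3) and 7.94 ± 2.1 on day 7 (SD, n = 2), and the log2 fold change was -0.10 with a 95% interval of -1.0 to 0.80. Its sign turned without day 7 replicate 1 (0.02) and without replicate 3 (0.14).

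Tgfb2, a TGF-beta best known from development and stroma (chromosome 1, 186622792 to 186705989, minus strand), was found on day 14 only, at 0.425, 0.22 and 0.389 RPKM, and was listed at 0 in the 3 day 7 libraries. This is 37 fragments on day 14 against none on day 7, and the exact 95% interval of the pooled ratio starts at 6.09, for counting error only. Tgfb3 (chromosome 12, 86056744 to 86079041, minus strand) stood at 3.24, 3.36 and 3.20 RPKM on day 14, against 5.86, 6.22 and 0 RPKM on day 7. Day 7 replicates 1 and 2 were above and replicate 3 below every day 14 library, so the day 7 mean of 3.02 ± 4.3 (SD, n = 2) describes no library. Of its exon bases, 163 lie under the gene model Gm37804 on the opposite strand, and since the strand setting of the counting is not given, reads there cannot be assigned to either.

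The make-up of the 5 ligand genes differed between the days. Of their summed RPKM, Inhba took 64.0%, 59.4% and 63.0% on day 14 and 1.84%, 0% and 1.62% on day 7. Tgfb1 took 23.1%, 28.2% and 24.3% on day 14 and 55.6%, 45.8% and 98.4% on day 7. These shares depend on gene model length, 1980 bases for Inhba and 5042 for Tgfb1. In reads, the day 14 libraries together held 1314 of Inhba and 1362 of Tgfb1. The sum of the 5 ligands was 28.4 to 28.8 RPKM on day 14 and 9.58 to 13.8 on day 7. The 3 TGF-beta genes alone summed to 10.3 to 11.7 RPKM on day 14, inside the 9.43 to 13.5 of day 7.

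**Figure D2:**
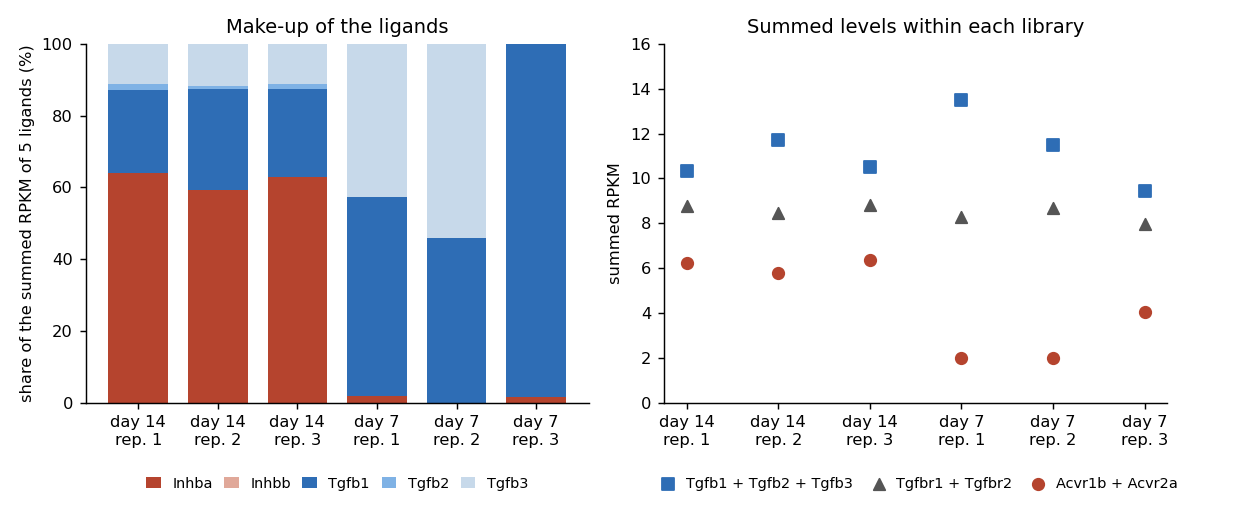
Left, share of the summed RPKM of 5 ligand genes taken by each gene in the 6 libraries, as stacked bars in percent. RPKM is scaled to gene length, so shares of reads differ from these. Right, summed RPKM of the TGF-beta ligand genes (squares), the TGF-beta receptor genes (triangles) and the activin receptor genes (circles) in the same libraries. Inhba makes up 59.4% to 64.0% of the bar on day 14 and 1.84% or less on day 7, and the circles are the symbols that separate the days, at 5.77 to 6.37 on day 14 and 1.98 to 4.05 on day 7.

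Tgfbr2, the type II receptor that binds TGF-beta first (chromosome 9, 116084293 to 116175360, minus strand), stood at 6.03, 6.81 and 6.33 RPKM on day 14 and at 8.28, 8.63 and 3.67 RPKM on day 7. Day 14 values lay between those of day 7 replicates 1 and 2 and that of replicate 3. The mean was 6.39 ± 0.39 RPKM on day 14 (SD, n = 3) and 6.06 ± 3.4 on day 7 (SD, n = 2). The log2 fold change was 0.15 with a 95% interval of -0.81 to 1.12, and its sign turned without day 7 replicate 3 (-0.36).

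Tgfbr1, the type I receptor and kinase of the pair (chromosome 4, 47353222 to 47414931, plus strand), stood at 2.73, 1.66 and 2.51 RPKM on day 14 and at 0, 0.0329 and 4.32 RPKM on day 7. Day 7 replicates 1 and 2 held 0 and 2 reads of it and replicate 3 held 184, more than day 14 replicate 2 with 136. The direction of Tgfbr1 therefore depends on which day 7 library is read, and day 7 replicates 1 and 2 had the higher Tgfbr2. The sum of both receptor genes was much steadier than either, at 8.46 to 8.83 RPKM on day 14 and 7.99 to 8.66 RPKM on day 7.

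Acvr1b, the type I receptor of activin (chromosome 15, 101174067 to 101213679, plus strand), was higher on day 14 in every library, at 3.20, 3.01 and 4.14 RPKM against 1.96, 1.95 and 2.33 RPKM on day 7. The day 7 libraries were close together here, replicate 3 included. The ratio of means was 1.61 and the difference on log2(RPKM + 1) was 0.50, so the change was far smaller than that of Inhba. Acvr2a, a type II receptor of activin (chromosome 2, 48814109 to 48903269, plus strand), stood at 3.03, 2.76 and 2.23 RPKM on day 14 and at 0.0441, 0.0378 and 1.73 RPKM on day 7. No day 7 library reached the lowest of day 14, but replicate 3 came within 1.55-fold of the day 14 mean, against 65.3-fold for the pair. It shares 446 exon bases with Orc4 on the opposite strand, where reads cannot be assigned, and Orc4 stood at 6.98 to 8.37 RPKM on day 14 and 6.18 to 8.18 on day 7. In the limma fit without a filter over 22712 genes, none of the 7 low genes was called, where 0.251% of all were called higher and 0.207% lower.

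In RPKM the order of levels on day 14 was Inhba, Tgfb1, Tgfbr2, Acvr1b, Tgfb3, Acvr2a, Tgfbr1, Tgfb2, Fst and Inhbb. Inhba lay above Tgfb1 in every day 14 library, while Tgfb1 and Tgfbr2 overlapped, as did Acvr1b and Tgfb3, Acvr2a and Tgfbr1, and Tgfb2 and Fst. This order depends on gene model length, 1980 bases for Inhba, 5042 for Tgfb1 and 8187 for Tgfbr2. In CPM, without length, Inhba (36.5, 33.9 and 35.4 on day 14) overlapped Tgfb1 (33.6, 41 and 34.8). Tgfbr2 was above both in CPM on day 14, at 49.4, 55.7 and 51.8. On day 7 the order of means was Tgfb1, Tgfbr2, Tgfb3, Tgfbr1, Acvr1b, Acvr2a, Fst and Inhba, with Inhbb and Tgfb2 at 0. On that day neighbours in the order overlapped in every case but Acvr1b and Acvr2a.

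The rest of the pathway was described by 7 lists of 90 genes, of which 81 were in the files, 75 had a read and 31 were tested. Of these 31, 3 rose on day 14 (2.62% of all tested genes did) and 0 fell (2.68% of all), by limma with Benjamini-Hochberg adjustment. At an unadjusted p under 0.05 there were 7 higher and 0 lower, where 12.7% of all tested genes were higher and 7.26% lower. Acvr1, Furin and Cyr61 are among the 7, and Cyr61 is also among the 3. They passed the filter through day 14 alone, so their place in these counts is no test. The lists were chosen with earlier results of these data known, so the pathway counts here and below are a description. With limma-voom on the recovered reads 6 were called higher and 0 lower, where 11.0% of all were called higher and 8.04% lower. The median log2 fold change of the 31 was 0.46, beside 0.16 over all 6690 tested genes. Median-of-ratios scaling moves the median of the 31 to 0.33 and that of all genes to 0.02. It moves the calls over all genes from 175 higher and 179 lower (49.4% higher) to 88 and 225 (28.1% higher). The 3 genes were called under it too.

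**Figure D3:**
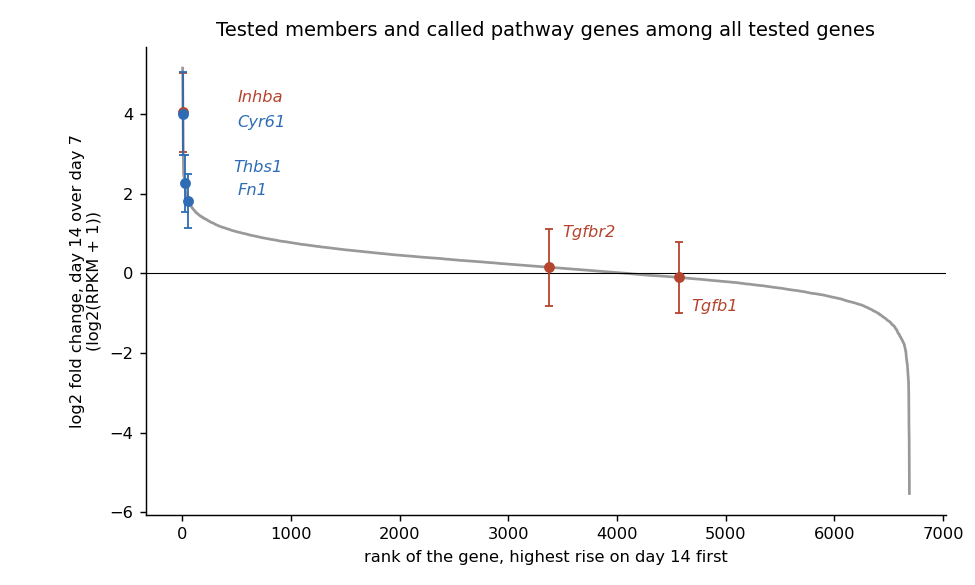
Log2 fold change on log2(RPKM + 1), day 14 over day 7, of all 6690 tested genes ordered from the highest rise (grey line), with 95% intervals for the 3 tested ligand and receptor genes (red) and the 3 called pathway genes (blue). Inhba at 4.04 is in place 4 and Cyr61 in place 5, while Tgfbr2 and Tgfb1 lie in the flat middle with intervals across 0. Inhba and Cyr61 passed the filter through day 14 alone, so their places are a description and no test.

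Genes that release or activate latent TGF-beta included the first of these. Thbs1, the gene of thrombospondin 1, a matrix protein that can activate latent TGF-beta, rose to 36.6, 37.4 and 35.9 RPKM on day 14, against 8.97, 10.3 and 4.82 RPKM on day 7. On the log2(RPKM + 1) scale it rose by 2.26 (SE 0.32, limma adjusted p = 0.00366). The call ended without day 7 replicate 3 (adjusted p = 0.0546) and without a filter (0.0587), with the same direction. Of the 6 tested genes of this list Thbs1 alone passed, with 2 at an unadjusted p under 0.05 (Thbs1 and Furin) and 2 called by limma-voom (Thbs1 and Itgav). Over all tested genes 2.62%, 12.7% and 11% were higher by these measures in that order. Furin, at a mean of 29.0 CPM, reached the filter through day 14 alone. Itgav, the alpha V integrin chain that binds latent TGF-beta, stood at 13.4 ± 0.18 RPKM on day 14 (SD, n = 3) and 7.91 ± 0.093 on day 7 (SD, n = 2) with an adjusted p of 0.258 by limma. Mmp14, a membrane protease, stood at 17.4 ± 0.99 RPKM on day 14 and 14.3 ± 0.32 on day 7. Ltbp3, which tethers latent TGF-beta to matrix, stood at 10.3 ± 2.1 RPKM on day 14 and 5.03 ± 1.5 on day 7, and neither was called. Nrros, which holds latent TGF-beta on myeloid cells, stood at 4.49 ± 1.3 RPKM on day 14 and 7.23 ± 0.93 on day 7, also without a call. The list's median was 0.81.

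Among 20 genes known to respond to TGF-beta or activin, 8 were tested and 2 rose, where 2.62% of all tested genes did. Cyr61, which encodes a secreted matricellular protein, rose to 27.0, 21.6 and 23.2 RPKM on day 14, against 0.373, 0.106 and 0.911 RPKM on day 7 (log2 fold change 4.01, SE 0.47, limma adjusted p = 0.00139). Its mean of 29.5 CPM passed the filter through day 14 alone, so its values and its place among the 2 are a description and no test. Its call was lost with limma-voom on the recovered reads (adjusted p = 0.151). Fn1, the gene of fibronectin, rose to 32.1, 36.5 and 33.9 RPKM on day 14, against 9.64, 9.48 and 8.40 RPKM on day 7 (log2 fold change 1.82, SE 0.30, limma adjusted p = 0.00771). Its call ended without day 7 replicate 3 (adjusted p = 0.0788) and without a filter (0.0775). Tgfbi, a matrix gene named for its induction by TGF-beta, was at 112 ± 6.8 RPKM on day 14 (SD, n = 3) and 72.7 ± 11 on day 7 (SD, n = 2) and missed the threshold (limma adjusted p = 0.109). Junb, an AP-1 subunit, Id2, an inhibitor of DNA-binding factors, and Skil, a Smad corepressor, gave no call, at log2 fold changes of -0.11, -0.15 and -0.06. The median of the 8 was 0.04, below the 0.16 of all genes. Of the 20 genes, 9 were higher without overlap between the days and 1 was lower, where 27% and 8.59% of all genes with a read were. Below the filter, and picked out after their values were seen, Itgae, an integrin chain gene induced by TGF-beta in T cells, was the lower one, at 1.44, 1.36 and 2.41 RPKM on day 14 against 5.2, 4.36 and 3.68 on day 7. Smad7, the feedback inhibitor, stood at 1.5, 2.73 and 2.24 RPKM on day 14 against 0.333, 0.095 and 0.203 on day 7, and Timp1, a protease inhibitor, at 10.9, 7.89 and 6.77 RPKM on day 14 against 0.283, 0 and 0 on day 7.

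**Figure D4:**
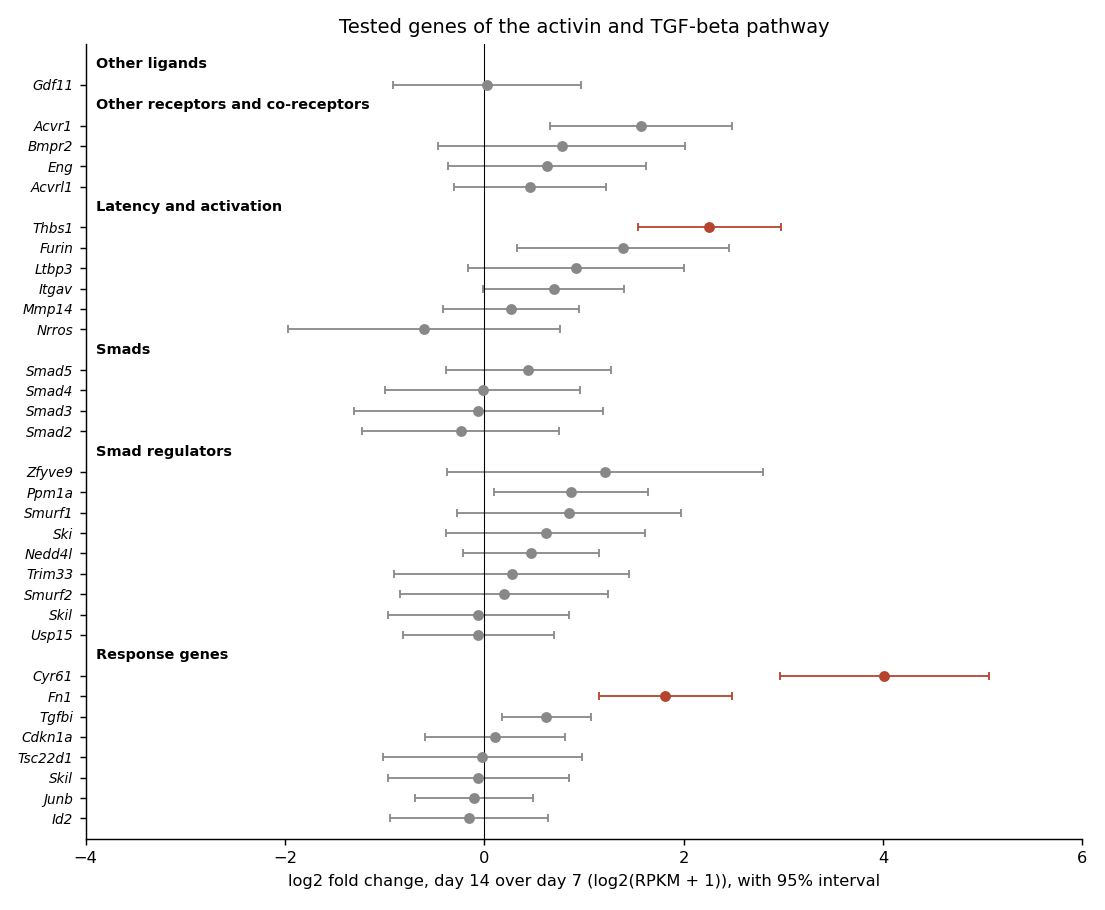
Log2 fold change on log2(RPKM + 1), day 14 over day 7, with 95% intervals, of the tested genes in each pathway list, with called genes in red and the others in grey. Thbs1, Fn1 and Cyr61 are the called genes, and the Smads lie around 0. Skil belongs to a pair of lists and is drawn in each.

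The Smads that carry the signal gave no call, with 0 of 4 tested called by limma, 0 at an unadjusted p under 0.05 and 0 by limma-voom. Over all tested genes 2.62%, 12.7% and 11% were higher by these measures in that order, so little can be read from 0 of 4. Smad2 stood at 5.91 ± 0.52 RPKM on day 14 (SD, n = 3) and 7.80 ± 4.8 on day 7 (SD, n = 2), and Smad3 at 5.55 ± 1.1 on day 14 and 6.86 ± 5.7 on day 7. Smad4, the shared partner, stood at 6.66 ± 0.87 RPKM on day 14 and 6.86 ± 2.1 on day 7. Smad5, which serves the BMP branch, stood at 15.7 ± 1.0 RPKM on day 14 and 12.3 ± 7.2 on day 7. The 95% interval of the log2 fold change was broadest for Smad3, at -1.31 to 1.19. Regulators of Smads had 0 calls among 9 tested by limma, 1 at an unadjusted p under 0.05 (Ppm1a) and 1 by limma-voom (Nedd4l, a ubiquitin ligase gene, at 15.7 ± 0.31 RPKM on day 14 and 11.1 ± 0.28 on day 7). Usp15, a deubiquitinase gene, stood at 28.5 ± 4.6 RPKM on day 14 and 29.6 ± 3.0 on day 7. Ppm1a, a phosphatase gene, stood at 20.6 ± 1.2 RPKM on day 14 and 11.5 ± 5.6 on day 7.

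Other receptors of the superfamily had 0 calls among 4 tested by limma, with 1 at an unadjusted p under 0.05 and 1 by limma-voom, both Acvr1. The shares of all tested genes that were higher by these measures were 2.62%, 12.7% and 11%. Acvr1, a type I receptor of BMPs that can also bind activin without signalling through SMAD2, stood at 11.2, 10.8 and 10.4 RPKM on day 14 and at 1.97, 2.67 and 3.75 RPKM on day 7. The days did not overlap and the difference on log2(RPKM + 1) was 1.58 (SE 0.41, limma adjusted p = 0.0547). Acvr1, at a mean of 37.3 CPM, passed the filter through day 14 alone, so these values are a description and no test. Acvrl1, Eng and Bmpr2, receptors and a co-receptor of the BMP branch and of endothelial TGF-beta signalling, had log2 fold changes of 0.46, 0.63 and 0.77. Gdf11, a ligand close to myostatin, was the 1 tested gene of the other ligands, at 6.59 ± 0.59 RPKM on day 14 and 6.71 ± 2.9 on day 7. No extracellular antagonist reached the filter.

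Marker sums of several cell types differed between the days, some higher and some lower on day 14, and their part in the values above was not tested. The 12 T cell markers summed to 123 to 132 RPKM on day 14 and 479 to 517 on day 7, and all 12 were lower without overlap. The 10 macrophage and monocyte markers summed to 655 to 673 RPKM on day 14 and 317 to 423 on day 7, with 7 higher and 1 lower without overlap. Lyz2 alone made up 376 to 392 RPKM of it on day 14 and 186 to 232 on day 7. Fcgr1 was the lower marker, at 15.2, 15.9 and 18.7 RPKM on day 14 against 31.7, 30.1 and 19.4 on day 7, and Adgre1 and C1qc overlapped. Within this list Cd14 stood at 15.4, 16.2 and 12.8 RPKM on day 14, against 0.639, 0.273 and 0 RPKM on day 7, the member nearest to the pattern of Inhba, and was picked out after its values were seen. The 7 melanocyte markers of B16 cells summed to 10410 to 11430 RPKM on day 14 and 5672 to 5896 on day 7, with 5 higher. Dct alone made up 8577 to 9681 RPKM of this sum on day 14 and 4431 to 4726 on day 7, and Mitf and Pmel overlapped. The 4 platelet markers summed to 21.7 to 31.1 RPKM on day 14 and 1.70 to 2.98 on day 7. Of these, Pf4 made up nearly all, and Ppbp, Itga2b and Gp9 were at 0 on day 7 and Gp9 also on day 14. The 5 neutrophil markers summed to 49.5 to 63.7 RPKM on day 14 and 12.8 to 17.4 on day 7, where Ly6g and Retnlg were at 0. Ly6g was also near 0 on day 14, at 0.187, 0 and 0 RPKM. S100a9 made up most of the day 14 sum, at 39.2, 36.6 and 49.2 RPKM, and S100a8 overlapped between the days. The 6 fibroblast markers were near 0 on both days (1.22 to 1.64 RPKM on day 14 and 1.42 to 2.09 on day 7), as were the 5 endothelial markers (3.87 to 4.60 on day 14 and 4.32 to 6.74 on day 7). Markers of natural killer cells were lower on day 14, at 13.8 to 16.4 RPKM against 77.7 to 122 on day 7 for 5 genes. The 3 hepatocyte markers summed to 2.37 to 5.52 RPKM on day 14 and 114 to 137 on day 7.

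**Figure D5:**
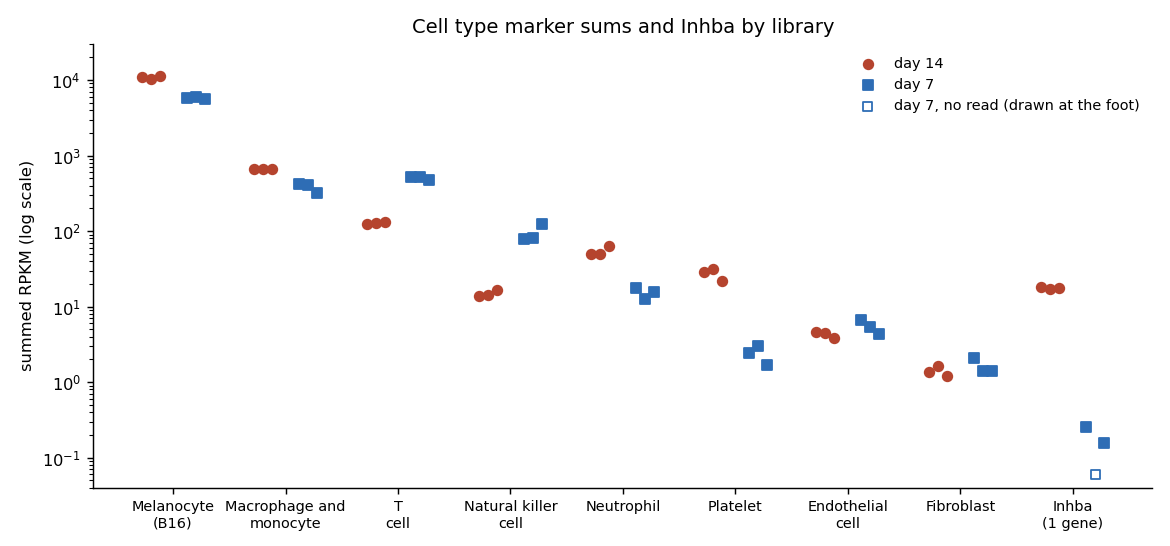
Summed RPKM (log axis) of cell type marker lists and the RPKM of Inhba in the 3 day 14 libraries (circles) and the 3 day 7 libraries (squares), where the open square stands for no read. Melanocyte and macrophage sums are 1.90 and 1.83 times as high on day 14 and the T cell sum is lower, and a sum does not show how single markers such as Cd14 moved. Dct makes up most of the melanocyte sum and Lyz2 most of the macrophage sum.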

How the data were processed

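RNA of cells selected with CD8a beads from B16 tumours was sequenced as poly-A, stranded libraries with molecular identifiers, 3 on day 14 and 3 on day 7. The deposited RPKM were made by the authors with Trimmomatic 0.36, featureCounts and Subread 1.5.1 on GRCm38, per the submitters' processing notes. For the aligner, strand setting and use of identifiers the sources used here give nothing. Value times length gave whole reads within 0.01 in every gene. The 4 entries of 2 repeated gene names were left out.

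limma 3.58.1 (R 4.3.3) was fitted to log2(RPKM + 1) of genes averaging at least 20 CPM, with day as the coefficient and precision weights per day from a smoothed (loess) variance trend (span 0.3, floor 0.005) taken at each gene's mean over both days, a choice made when the fit was tested on simulated data. A call is a p under 0.05 after Benjamini-Hochberg adjustment over all tested genes. Nothing shows that libraries come from separate mice, so p-values measure the spread between these samples.

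The genes, lists and settings were chosen with earlier results of these data known. Named pathway genes were the called ones of each list and up to 4 more of highest RPKM. Alternatives changed the pseudocount, filter, scaling, weights, averaging, replicate block, test and libraries used, with the same genes tested except where the filter changed.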

Additional observations from a re-analysis of the deposited data

How the results depend on the processing

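Inhba was chosen on this contrast, so its values under the alternatives say nothing of stability. Its log2 fold change was 3.97 to 4.13 when 1 library was left out and 6.74 with limma-voom on recovered reads, where it was not past the threshold. Of the other 9 genes, 3 (Inhbb, Tgfb2 and Acvr2a) moved by more than their replicate spread, each with a pseudocount of 0.1. That spread was wide for Tgfb3 and Tgfbr1 (SD 1.99 and 1.69), so staying inside it does not make them stable. Without day 7 replicate 3 Tgfb3 went from 0.69 to -0.72 and Tgfbr1 from 0.49 to 1.68. The counts of all genes called depended on the settings. Against 175 higher and 179 lower, there were 57 and 47 without a filter, 74 and 73 with an RPKM of 1 or more in 2 samples, 1059 and 575 when the 6 libraries entered singly, 601 and 410 with no weights, 736 and 538 with limma-voom, and 88 higher with median-of-ratios scaling. Leaving out 1 library gave 71 to 170 higher and 61 to 176 lower, fewest without day 7 replicate 3, where the lone sample keeps the full set's day 7 spread. Pathway genes called higher were 3, against 1 without a filter, 7 with libraries entered singly, 7 with no weights, 6 with limma-voom and 1 to 4 with a library left out, and 0 were lower in every alternative. The replicate numbers did not pair the libraries (correlations of same-numbered deviations -0.014, -0.015 and -0.034), and the replicate block with libraries counted singly gave 686 higher and 477 lower, and 7 pathway genes higher. The cause of these differences was not tested. The spread of the day 7 libraries limits what can be said, most for genes under 20 CPM but also for those of 20 to 100 CPM.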
